A study of Mus musculus with 8 samples.

Results

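Interleukin-1β (IL-1β) and the genes that induce, process and restrain it were examined in MKs cultured alone and in MKs cocultured with MSCs. Members were the rows of the deposited count matrix named Il1b, Il1rn, Il1r2, Il18, Nlrp3, Casp1, Tlr2, Tlr4, Myd88 and Tnf, and all 10 were found among the 13387 genes of the matrix. All 10 also passed the filter on low counts that left 11722 genes to test. The libraries came from C57BL/6 wild-type marrow, with 4 libraries of MKs grown without other added cells and 4 of MKs grown together with wild-type MSCs sorted from marrow, each for 18 hours. In the methods, MKs were enriched from flushed marrow with beads against CD41 and kept in medium with thrombopoietin, and several wells were pooled for each library. The labels give the sequenced cells as MKs separated from platelets, whereas the paper gives them as platelets. The paper counts the replicates of each group as mice, but the labels do not tie a library to a mouse, so p-values measure the spread between these libraries.

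Toll-like receptors (TLRs) recognize microbial and other danger molecules and signal through the adaptor MyD88 to the transcription factor NF-κB, which induces genes such as Il1b and Tnf. IL-1β and IL-18 are made as inactive precursors, and the protease caspase-1, activated in an inflammasome such as that built on NLRP3, cleaves them. The receptor antagonist IL-1RN and the decoy receptor IL-1R2 limit the response, and in the marrow monocytes, macrophages and neutrophils are well-known sources of these transcripts.

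Levels are given as CPM, that is, counts relative to the library total, scaled with edgeR's TMM factors. The libraries held from 4939874 to 12523616 counts, and 3 counts corresponded to between 0.284 and 0.662 CPM, a floor that covers counting error only. Coculture replicate 3 stood apart from the other libraries. It had the highest total but 2652 genes at 0, and 1012 of these had 10 or more counts in each of the other libraries, so the results for the members and for the lists are given with and without it. The libraries also differed in the markers of several cell types, scored as the mean log2(CPM + 1) of a list. All 6 scores separated the groups without overlap (exact permutation test, two-sided, p = 0.0286, the smallest that 4 against 4 libraries allow, and 0.0286 after adjustment over the lists). The 15 MK and platelet markers, summed, ran from 1923 to 2236 CPM in MKs cultured alone and from 1740 to 2307 CPM in cocultures. With all 8 libraries edgeR called none of them changed, with 1 lower at an unadjusted p under 0.05 and 1 called lower by DESeq2. Their highest gene, Pf4, a platelet chemokine, was at 841 ± 210 CPM (SD, n = 4) and 1070 ± 362 CPM (SD, n = 4). The MK and platelet score was 5.62 ± 0.083 and 5.01 ± 0.58, a difference of -0.61. Without coculture replicate 3, edgeR called 1 of the 15 markers higher, Selp, and 3 lower, Gp1ba, Gp6 and Nbeal2. In that fit 20.6% of all genes were called higher and 15.4% lower. Summed neutrophil markers were between 83344 and 84314 CPM in MKs cultured alone and between 4593 and 10310 CPM in cocultures, with 12 of 12 called lower and the highest, S100a8, at 48457 and 4404 CPM on average. Monocyte markers ran from 1311 to 1671 CPM against 151 to 271 CPM, with 4 of 5 called lower, among them the highest, Ly6c2, at 934 and 144 CPM. B cell markers ran from 854 to 902 CPM against 61.1 to 225 CPM, with 4 of 8 called lower, among them the highest, Ms4a1, at 381 and 53.8 CPM. Macrophage markers ran from 156 to 231 CPM against 955 to 1408 CPM, with 9 of 10 called higher, among them the highest, Csf1r, at 105 and 263 CPM. MSC markers ran from 153 to 188 CPM against 1264 to 4275 CPM, with 7 of 10 called higher, among them the highest, Sparc, at 0.548 and 963 CPM. Without coculture replicate 3, 12 of 12 neutrophil, 4 of 5 monocyte and 5 of 8 B cell markers were called lower. In that fit 11 of 11 macrophage and 9 of 11 MSC markers tested were called higher. No marker of these lists was at 0 in all 4 libraries of MKs cultured alone. In MKs cultured alone the highest MSC markers were Vcam1, Itgav and Eng, at 93.4, 40.5 and 20.3 CPM on average. Sparc, Col1a1 and Col3a1 were at 0.548, 0.287 and 0.0552 CPM there, within or under the range of the floor of 3 counts. The libraries labelled MK thus held neutrophil, monocyte, B cell and macrophage markers in both groups. For MSCs this is less clear in MKs cultured alone. The part of these cells in the results below was not tested. Fewer cells of a type and less RNA per cell cannot be told apart in bulk libraries.

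Of the 10 members, Il1b was the only one called changed between the groups with all 8 libraries, and it was lower in the cocultures. A gene counted as called where edgeR's quasi-likelihood test gave a change of 2-fold or more with an adjusted p (Benjamini-Hochberg) no higher than 0.05, and where either group reached an average of 1 CPM. That is 1 of 10 members called lower, where 7.31% of all genes tested were called lower, and 0 of 10 called higher, where 13.2% were, which makes 1 of 10 in either direction against 20.5%. No member was higher at an unadjusted p under 0.05 by edgeR or called higher by DESeq2, and DESeq2 called 1 lower, Il1b. DESeq2 gave Nlrp3 (log2 fold change 1.71) no adjusted p, so it could not call that member. Of all 11722 genes it called 1857 higher and 1259 lower. The median log2 fold change of the members was -0.32, against 0.034 for all genes. When coculture replicate 3 was left out, Il18 and Tnf were called higher and Il1b lower, so that 2 of 10 members were called higher, where 20.6% of all genes were, and 1 of 10 lower, where 15.4% were, or 3 of 10 in either direction against 36.0%. Their median log2 fold change was then -0.34, against 0.030 for all genes. The promoters of these 3 members, the 250 bases before the transcription start, are shown because these were the members called in either setting. They are RefSeq sequences on GRCm38.p6, written 5′ to 3′ on the strand of the gene, with matches to the motifs searched in capitals.
Il1b, chr2:129371140-129371389, minus strand: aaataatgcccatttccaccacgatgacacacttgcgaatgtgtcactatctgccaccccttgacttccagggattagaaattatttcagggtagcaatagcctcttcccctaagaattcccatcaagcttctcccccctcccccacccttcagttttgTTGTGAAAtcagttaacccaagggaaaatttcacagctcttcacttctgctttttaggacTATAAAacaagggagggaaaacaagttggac
Il18, chr9:50554450-50554699, plus strand: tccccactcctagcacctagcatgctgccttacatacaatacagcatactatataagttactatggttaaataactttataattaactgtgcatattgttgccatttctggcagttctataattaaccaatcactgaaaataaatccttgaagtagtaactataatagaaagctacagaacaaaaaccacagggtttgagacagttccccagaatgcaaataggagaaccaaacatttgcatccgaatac
Tnf, chr17:35202008-35202257, minus strand: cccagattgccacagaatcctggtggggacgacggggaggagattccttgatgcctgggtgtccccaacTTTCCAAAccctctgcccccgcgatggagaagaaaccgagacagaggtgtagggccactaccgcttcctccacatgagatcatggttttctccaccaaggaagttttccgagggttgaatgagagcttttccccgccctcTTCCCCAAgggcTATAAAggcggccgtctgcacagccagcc

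The motifs searched, on both strands, were NF-κB, AP-1 (TGANTCA), C/EBP (TTNNGNAA), a PU.1 core (GAGGAAGT) and an ISRE core (GAAA, any 2 bases and GAAA), and on the forward strand only, the TATA box (TATAAA). The Il1b window held TTGTGAAA, a C/EBP match, from position -91 to -84 and a TATA box from -31 to -26, where -1 is the last base before the RefSeq transcription start. The Tnf window held 2 C/EBP matches on the reverse strand and a TATA box from -29 to -24. The Il18 window held none of these letters. Of 32817 RefSeq promoters of the same length, 36.8% held the C/EBP letters, 7.60% the TATA box, 3.90% NF-κB, 6.75% AP-1, 2.97% the ISRE core and 2.44% the PU.1 core. Windows of 9 members were found. A match is a description of the letters and not a site, and the absence of one says nothing about the factor.

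**Figure D1:**
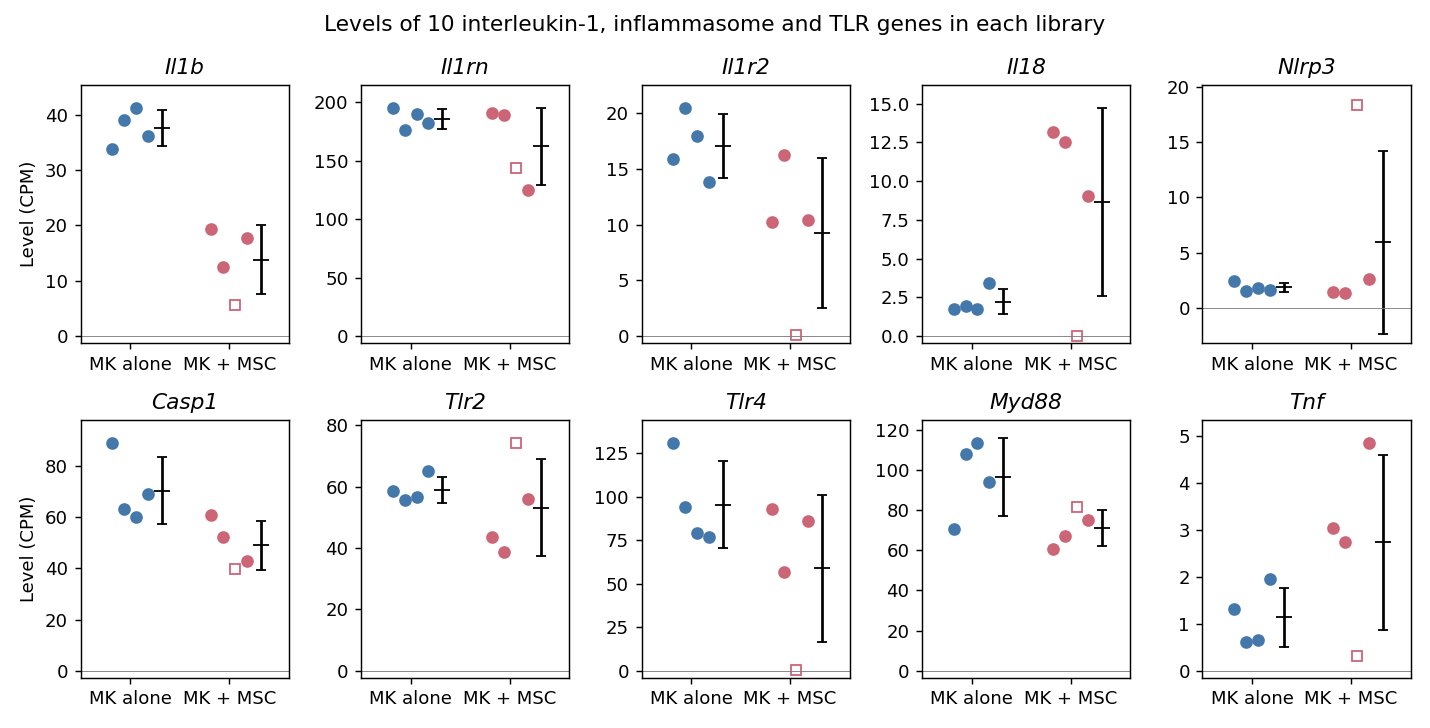
Level of each of the 10 members in each library, in CPM on a linear axis, for MKs cultured alone (blue) and cocultured with MSCs (red). The open square is coculture replicate 3, and the bar beside each group is the mean ± SD of 4 libraries. Il1b is the only member whose groups do not overlap, and the open square lies at or near 0 for Il1r2, Il18, Tlr4 and Tnf.

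Among the cytokines, Il1b, which encodes the IL-1β precursor (chr2:129364570-129371139, minus strand of GRCm38, annotation GENCODE vM21), was at 33.8, 39.0, 41.3 and 36.1 CPM in replicates 1 to 4 of MKs cultured alone. In cocultures it was at 19.4, 12.5, 5.55 and 17.7 CPM. Every coculture lay below every library of MKs cultured alone, a separation in that direction that 21.1% of all genes tested showed (40.3% in either direction). The groups of the other 9 members overlapped. The log2 fold change was -1.44 ± 0.42 (SE), a 2.72-fold fall (edgeR, adjusted p = 0.0366). Without coculture replicate 3 the fall was 2.30-fold (log2 fold change -1.20 ± 0.22, adjusted p = 0.000179). Neutrophil, monocyte, B cell, and MK and platelet marker scores differed in the same libraries by -3.23, -2.43, -1.87 and -0.61. Macrophage and MSC scores differed by 3.11 and 4.15. The part of these cells in the fall of Il1b was not tested. The direction held in all 15 alternative fits, with adjusted p from 0.000179 to 0.113, but the call was lost in 9 of them. It was lost on leaving out replicate 1, 2, 3 or 4 of MKs cultured alone (edgeR, adjusted p = 0.0737, 0.0945, 0.0923 and 0.0860) or replicate 2 or 4 of the cocultures (0.0938 and 0.0631), and with library size scaling only (0.0715), scaling to MK and platelet markers (0.113) and the replicate block (0.0888). Exons of Il1b overlap those of Il1bos on the opposite strand, and the sources used here do not state that strand was used in counting, so reads of the overlap cannot be told apart.

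Il1rn, which encodes the antagonist that occupies the IL-1 receptor without signalling (chr2:24336853-24351494, plus strand), was the member with the highest level, per length as well. Its levels were 195, 176, 190 and 182 CPM in MKs cultured alone and 190, 189, 144 and 125 CPM in cocultures. The groups overlapped, and its log2 fold change was -0.20 ± 0.19 (SE, adjusted p = 0.504, edgeR), or -0.16 ± 0.18 without coculture replicate 3. The ratio of Il1b to Il1rn counts within a library, which does not depend on the scaling between libraries, was 0.174, 0.222, 0.217 and 0.199 in MKs cultured alone. It was 0.102, 0.0663, 0.0389 and 0.143 in cocultures, each below every value of MKs cultured alone. The mean log2 ratio differed by -1.37 (two-sided exact permutation test, p = 0.0286). Adjusted over 5 ratios, p was 0.0476 with all 8 libraries in every ratio and 0.0714 once a library without a count of either gene was left out of the ratio concerned. Without coculture replicate 3 the log2 ratio differed by -1.03, in a design of 4 against 3 libraries whose smallest p is 0.0571.

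Il18 encodes the precursor of IL-18, a cytokine that induces interferon-γ (chr9:50554827-50581840, plus strand). It was at 1.77, 1.96, 1.77 and 3.42 CPM in MKs cultured alone. In cocultures it was at 13.2, 12.5 and 9.02 CPM in replicates 1, 2 and 4, and had 0 counts in replicate 3, which allows up to 0.314 CPM. The other 3 cocultures thus lay above every library of MKs cultured alone, and replicate 3 lay below all of them. With all libraries the log2 fold change was 1.95 ± 1.16 (SE, adjusted p = 0.263, edgeR) and was not called. On leaving out replicate 3 it was 2.36 ± 0.35, a 5.15-fold rise (adjusted p = 2.44e-05), and the groups were apart, as they were in that direction for 28.1% of all genes without that library (54.4% in either direction). The macrophage and MSC marker scores were higher in cocultures, by 3.11 and 4.15. In coculture replicate 3 the macrophage score was 5.27, against 5.19, 5.91 and 5.26 in replicates 1, 2 and 4. The MSC score was 4.21 there, against 6.89, 6.93 and 6.67. The part of these cells in the levels of Il18 was not tested. Il18bp, which encodes a secreted inhibitor that binds IL-18, was at 7.40 ± 4.18 CPM (SD, n = 4) in MKs cultured alone and 3.65 ± 2.49 CPM (SD, n = 4) in cocultures (log2 fold change -1.02 ± 1.08, adjusted p = 0.540, edgeR, and -0.64 without coculture replicate 3). The ratio of Il18 to Il18bp counts was 0.630, 0.163, 0.347 and 0.374 in MKs cultured alone and 2.34, 2.64 and 2.06 in cocultures 1, 2 and 4. Both genes had 0 counts in coculture replicate 3, which therefore gave no measured ratio. The mean log2 ratio of the other 3 cocultures was higher by 2.78, and each lay above every library of MKs cultured alone (exact permutation p = 0.0571, the smallest that 4 against 3 libraries allow, adjusted p = 0.0952).

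Tnf encodes tumour necrosis factor, an inflammatory cytokine induced through NF-κB (chr17:35199381-35202007, minus strand). It was near the detection floor, at 1.32, 0.618, 0.665 and 1.95 CPM in MKs cultured alone, with 6, 6, 6 and 12 counts. In cocultures it was at 3.03, 2.74, 0.314 and 4.86 CPM, with 32, 21, 3 and 28 counts. Replicates 1, 2 and 4 of the cocultures were above every library of MKs cultured alone, and replicate 3 was below them all. Without replicate 3 the groups were apart in that direction for 28.1% of all genes (54.4% in either direction). The log2 fold change was 1.26 ± 0.83 (SE, adjusted p = 0.314, edgeR), and 1.66 ± 0.52 without replicate 3, a 3.16-fold rise that was called (adjusted p = 0.0124).

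Of the receptors, Il1r2 encodes the decoy receptor that binds IL-1 and carries no signalling domain (chr1:40074079-40125231, plus strand). It was at 15.9, 20.5, 18.0 and 13.8 CPM in MKs cultured alone and at 10.2, 16.3, 0.105 and 10.4 CPM in cocultures. Coculture replicate 2 lay within the range of MKs cultured alone and the others lay below it, replicate 3 with a single count. The log2 fold change was -0.88 ± 0.94 (SE, adjusted p = 0.545, edgeR), and -0.50 ± 0.26 (adjusted p = 0.117) without replicate 3. The signalling receptor Il1r1 was at 2.87, 1.13, 2.88 and 3.74 CPM in MKs cultured alone and 9.67, 11.3, 1.99 and 9.54 CPM in cocultures (log2 fold change 1.61 ± 0.69, adjusted p = 0.127, and 1.95 without replicate 3, where it was called higher, adjusted p = 0.000353). The ratio of Il1r2 to Il1r1 counts was 5.37, 17.3, 6.13 and 3.64 in MKs cultured alone and 1.06, 1.43, 0.0769 and 1.09 in cocultures. The groups did not overlap, and the mean log2 ratio differed by -3.50 (exact permutation p = 0.0286, adjusted p = 0.0476, or 0.0714 with only measured ratios), or by -2.51 without coculture replicate 3.

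Tlr2, whose product senses bacterial lipoproteins (chr3:83836272-83841767, minus strand), was at 58.5, 55.7, 56.8 and 65.1 CPM in MKs cultured alone and at 43.5, 38.8, 74.4 and 56.0 CPM in cocultures. Coculture replicate 3 was the highest of the 8 libraries, replicate 4 lay within the range of MKs cultured alone, and replicates 1 and 2 lay below it. The log2 fold change was -0.15 ± 0.26 (SE, adjusted p = 0.720, edgeR), 0.018 without coculture replicate 2 and -0.38 without replicate 3. Tlr4, which encodes the receptor for bacterial lipopolysaccharide (chr4:66827584-66930284, plus strand), was at 131, 94.0, 79.0 and 77.1 CPM in MKs cultured alone. In cocultures it was at 93.1, 56.5 and 86.0 CPM in replicates 1, 2 and 4 and at 0.314 CPM, or 3 counts, in replicate 3. The groups overlapped, with a log2 fold change of -0.69 ± 0.99 (SE, adjusted p = 0.656), or -0.29 ± 0.22 (adjusted p = 0.272) without replicate 3. The ratio of Tlr2 to Tlr4 counts ran from 0.447 to 0.844 in MKs cultured alone. Cocultures 1, 2 and 4 lay within that range, at 0.468, 0.687 and 0.652, and replicate 3 was at 203. The mean log2 ratio differed by 2.01 with all libraries (exact permutation p = 0.629, adjusted p = 0.786), and by -0.092 without replicate 3.

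Myd88, the adaptor shared by IL-1 receptors and most TLRs (chr9:119335934-119341411, minus strand), was at 70.4, 108, 114 and 93.9 CPM in MKs cultured alone and at 60.8, 67.2, 81.5 and 75.1 CPM in cocultures. Of the libraries of MKs cultured alone, replicate 1 lay within the range of the cocultures and the others lay above it. The log2 fold change was -0.44 ± 0.22 (SE, adjusted p = 0.187, edgeR), and -0.54 ± 0.19 without coculture replicate 3, where the adjusted p was 0.0262 but the change stayed under 2-fold. Exons of Myd88 overlap those of Acaa1a on the opposite strand, so that reads of the overlap are uncertain.

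Nlrp3, the sensor of the inflammasome that bears its name (chr11:59541568-59566956, plus strand), was at 2.43, 1.55, 1.77 and 1.63 CPM in MKs cultured alone, with 10 to 16 counts. In cocultures it was at 1.42, 1.30 and 2.60 CPM in replicates 1, 2 and 4, with 10 to 15 counts, and at 18.3 CPM in replicate 3, with 175 counts. The positive log2 fold change of 1.68 ± 0.95 (SE, adjusted p = 0.238, edgeR) rested on that library, and without it the value was -0.082 ± 0.49 (adjusted p = 0.899). Casp1, which encodes the protease that cleaves IL-1β and IL-18 precursors (chr9:5298517-5307265, plus strand), was at 89.2, 63.4, 59.9 and 69.0 CPM in MKs cultured alone and at 60.9, 52.4, 39.9 and 43.0 CPM in cocultures. Only the highest coculture reached the range of MKs cultured alone, and the log2 fold change was -0.52 ± 0.24 (SE, adjusted p = 0.159), or -0.45 ± 0.20 (adjusted p = 0.0637) without coculture replicate 3. Pycard, which encodes the adaptor ASC that links NLRP3 to caspase-1, was at 31.1, 41.1, 49.3 and 44.6 CPM in MKs cultured alone and at 17.0, 26.8, 155 and 19.8 CPM in cocultures. The ratio of Casp1 to Pycard counts ran from 1.21 to 2.86 in MKs cultured alone, was 3.58, 1.95 and 2.17 in cocultures 1, 2 and 4, and was 0.258 in replicate 3. The mean log2 ratio differed by -0.27 (exact permutation p = 0.886, adjusted p = 0.886), and by 0.55 without replicate 3.

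**Figure D2:**
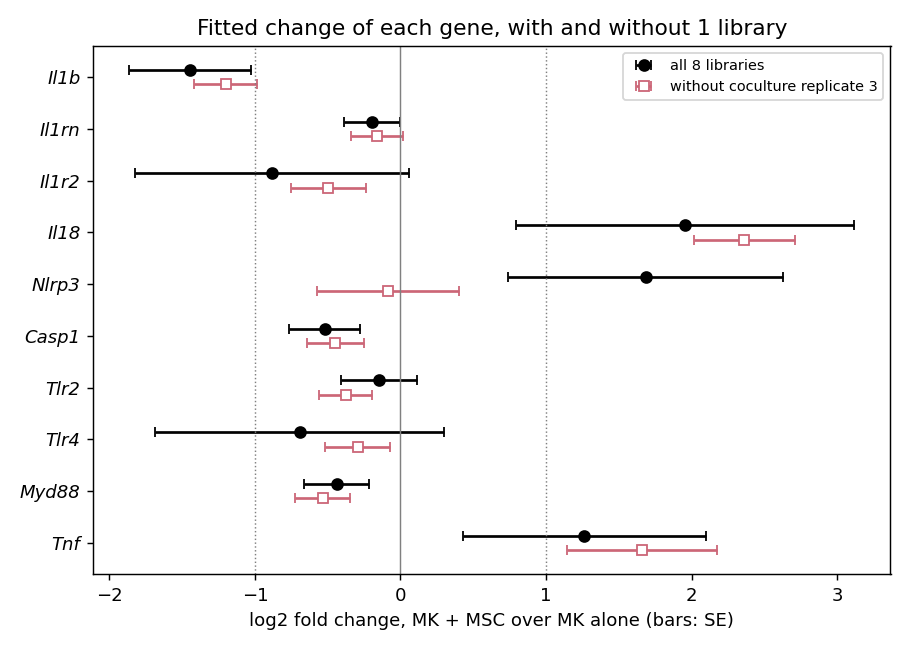
Fitted log2 fold change (cocultures over MKs cultured alone, edgeR) of each member, with bars of 1 SE, for all 8 libraries (filled circles) and without coculture replicate 3 (open squares). Dotted lines mark a 2-fold change. Nlrp3 moves from 1.68 to -0.082, and the SE of Il18 falls from 1.16 to 0.35.

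**Figure D3:**
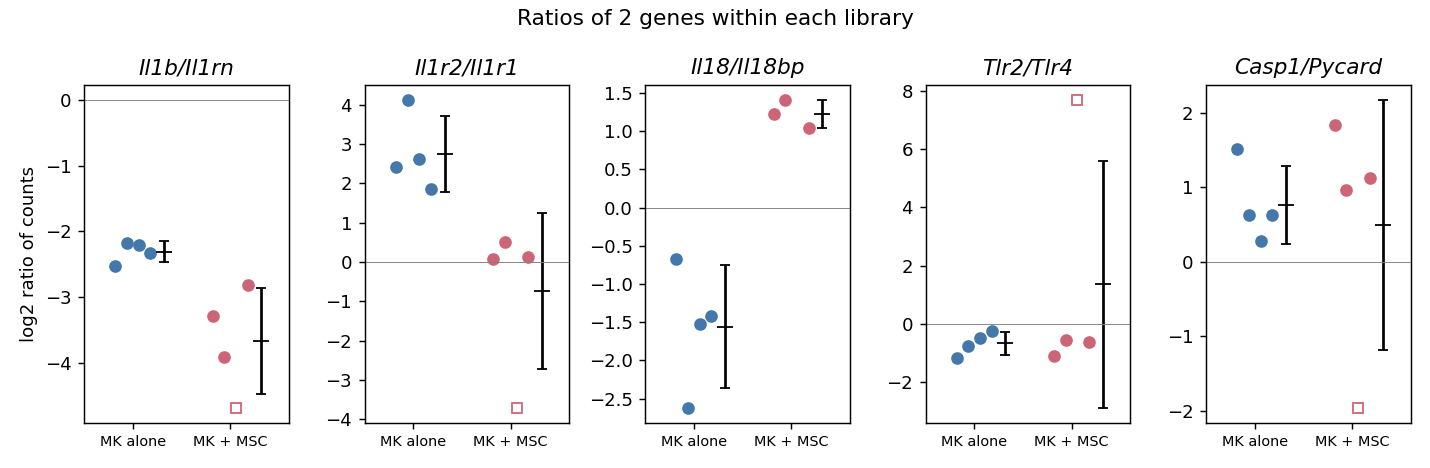
Log2 ratio of the counts of 2 genes within each library, with 0.5 counts added to each, for MKs cultured alone (blue) and cocultures (red). The open square is coculture replicate 3, and bars are the mean ± SD of the libraries shown. Coculture replicate 3 had 0 counts of both Il18 and Il18bp and is not drawn for that ratio. The libraries drawn do not overlap between groups for Il1b/Il1rn, Il1r2/Il1r1 and Il18/Il18bp. Ratios of other gene pairs were not examined.

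Levels of different members were compared per length, as CPM divided by the mean length in kilobases of a gene's protein-coding transcripts. In MKs cultured alone the order was Il1rn (135 ± 6.02, SD, n = 4), Myd88 (82.4 ± 16.4), Casp1 (47.0 ± 8.74), Tlr4 (32.1 ± 8.43), Il1b (27.7 ± 2.41), Il1r2 (20.1 ± 3.37), Tlr2 (19.6 ± 1.40), Il18 (2.83 ± 1.01), Tnf (0.735 ± 0.406) and Nlrp3 (0.641 ± 0.139 CPM per kb). The ranges of Casp1 and Tlr4, of Tlr4 and Il1b, of Il1r2 and Tlr2, and of Tnf and Nlrp3 overlapped, and those of the other neighbours in that order did not. In cocultures Il1rn (118 ± 24.0), Myd88 (60.8 ± 7.75) and Casp1 (32.7 ± 6.35 CPM per kb) were again in this order, and the ranges of Il1rn and Myd88 and of Myd88 and Casp1 were apart. The other 7 ran from Tlr4 (19.9 ± 14.2) to Tnf (1.76 ± 1.20 CPM per kb), and every neighbouring pair among them overlapped. Il1b, the fifth in MKs cultured alone, was at 10.2 ± 4.60 CPM per kb in cocultures and the eighth.

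For the 7 members that reached a mean of 10 CPM in a group, the genes with the most similar pattern were sought by Pearson's r of log2(CPM + 1) over the 8 libraries, among 8995 genes with a mean of at least 10 CPM. Such values share the group difference and coculture replicate 3, and are a description. The closest to Il1b were Ptafr (r = 0.995), which encodes the receptor for platelet-activating factor, Aqp9 (0.995), an aquaporin, and Rprd1b (0.994). Ptafr was called lower in cocultures (log2 fold change -2.41, adjusted p = 0.0160, edgeR), and none of the other similar genes in this paragraph was called. It was found by its likeness to Il1b in the same 8 libraries, so its call is no separate result. The closest to Il1rn were Gvin1 (0.955), Glrx2 (0.932) and Sec22b (0.921), and to Il1r2 Tti1 (0.997), Txndc11 (0.997) and Racgap1 (0.996). Casp1 was nearest to Ppp2ca (0.982), Selenop (0.982) and Agpat5 (0.981), and Tlr2 to F8a (0.968), Ccdc181 (0.951) and Mid1ip1 (0.948). Tlr4 was nearest to Ddx19b (0.999), Cnot4 (0.998) and Klhl7 (0.998), and Myd88 to Rit1 (0.985), Mta2 (0.975) and H2-T23 (0.961). The high values for Il1r2 and Tlr4 include coculture replicate 3, where both genes were near 0.

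The other genes of these pathways were taken from 7 lists written by hand, which held 109 genes with the members included. Of these, 98 were in the matrix and 96 were tested. With all libraries 5 of the 96 were called higher and 10 lower, with a median log2 fold change of -0.35, where 13.2% and 7.31% of all genes were called and their median was 0.034. Without coculture replicate 3, 9 of 96 were called higher and 27 lower, which included all 10 of the lower calls and 4 of the 5 higher calls made with all libraries. In that fit 20.6% of all genes were called higher and 15.4% lower, and these shares stand beside the counts of each list below. Of the 14 genes called with all libraries that are no members, Ube2v1 was the one whose call was lost without that library.

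The list of IL-1 and IL-18 receptors, which includes Il1r1 and Il1r2, had 1 of 9 called higher and 2 lower (median log2 fold change -1.02). Leaving out coculture replicate 3, these were 2 higher and 4 lower (median -0.64). Il1rl1, which encodes the IL-33 receptor, rose from 14.2 ± 3.16 to 48.5 ± 9.48 CPM (SD, n = 4 each, 3.41-fold, edgeR, adjusted p = 0.00404). Il18rap, which encodes the accessory subunit of the IL-18 receptor, was at 105 ± 10.9 CPM in MKs cultured alone and 20.0 ± 4.18 CPM in cocultures (SD, n = 4 each), a 5.22-fold fall (edgeR, adjusted p = 0.000177). Il18r1, which encodes its ligand-binding subunit, fell from 4.28 ± 1.04 to 0.297 ± 0.389 CPM (adjusted p = 0.0207). The log2 fold changes of Il1rl1, Il18rap and Il18r1 were 1.77, -2.39 and -3.90, and 1.75, -2.55 and -3.56 without coculture replicate 3. Both subunits of the IL-18 receptor were thus lower in the cocultures, in 3 of which Il18 itself was above every library of MKs cultured alone.

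Of 17 inflammasome genes tested, 2 were called lower (median log2 fold change -1.31), Txnip and Nlrp12. Txnip, which encodes a thioredoxin-binding protein, was 2.48-fold lower (120 ± 11.9 against 48.3 ± 9.66 CPM, adjusted p = 0.00303, edgeR). Nlrp12, a NOD-like receptor of myeloid cells, was at 11.9, 13.6, 16.2 and 11.1 CPM in MKs cultured alone and 1.14, 1.30, 0 and 1.56 CPM in cocultures (adjusted p = 0.0218). Without coculture replicate 3 the log2 fold changes of Txnip and Nlrp12 went from -1.31 to -1.20 and from -3.72 to -3.34. No gene of this list was higher at an unadjusted p under 0.05 by edgeR or called higher by DESeq2, and DESeq2 called 4 lower. DESeq2 gave Nlrp3 no adjusted p and so could not call it. With coculture replicate 3 left out, 9 of 17 were called lower, where 15.4% of all genes were (median log2 fold change -1.13), among them Nlrc4, Naip2, Naip5, Naip6 and Aim2. The Naip genes are related to each other, and how well their reads can be told apart was not examined. These sensor genes were named after their values were seen.

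Of 17 TLR and coreceptor genes tested, 1 was called higher and 1 lower (median log2 fold change -0.55), and 2 higher and 4 lower without coculture replicate 3 (median -0.38). Cd14, the coreceptor that passes lipopolysaccharide to TLR4, had the largest fitted rise of the 96 pathway genes with all libraries, from between 6.84 and 13.1 CPM in MKs cultured alone to 128, 135, 712 and 197 CPM in cocultures (log2 fold change 4.77 ± 0.66, adjusted p = 0.00109, edgeR). Every coculture was above every library of MKs cultured alone, a separation in that direction that 19.3% of all genes tested showed (40.3% in either direction). Without coculture replicate 3 the log2 fold change was 3.81 (edgeR, adjusted p = 1.24e-09). Lbp, which encodes the lipopolysaccharide-binding protein, fell from 26.3 ± 4.43 to 2.94 ± 2.15 CPM (8.97-fold, adjusted p = 0.0196, with a log2 fold change of -3.16, and -2.81 without that library). In the same libraries the macrophage and MSC marker scores differed by 3.11 and 4.15. The neutrophil, monocyte, B cell, and MK and platelet scores differed by -3.23, -2.43, -1.87 and -0.61. The part of these cells in the levels of Cd14 and Lbp was not tested.

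Of 19 TIR adaptor and proximal kinase genes tested, 2 were called higher and 2 lower (median log2 fold change -0.12), and 1 higher and 4 lower without coculture replicate 3 (median -0.42). Irak2, a kinase-like protein of the MyD88 complex, rose from 23.6 ± 2.07 to 72.3 ± 39.2 CPM (3.07-fold, edgeR, adjusted p = 0.0140), and Ube2v1, a ubiquitin-conjugating enzyme variant that acts with TRAF6, from 145 ± 26.0 to 337 ± 178 CPM (2.32-fold, adjusted p = 0.0316). Leaving out coculture replicate 3, the change of Ube2v1 was under 2-fold (log2 fold change 0.75) and it was not called. Irak4, the first kinase of that complex, fell from 55.4 ± 7.81 to 18.4 ± 8.83 CPM (3.02-fold, adjusted p = 0.0326), and Traf6, the ubiquitin ligase downstream of it, from 74.6 ± 6.25 to 36.9 ± 15.2 CPM (2.02-fold, adjusted p = 0.0393). The log2 fold changes of Irak2, Irak4 and Traf6 were 1.62, -1.59 and -1.01, and 1.14, -1.31 and -1.36 without coculture replicate 3.

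Of 17 NF-κB and IKK genes tested, 2 were called lower (median log2 fold change -0.069), and edgeR called none higher, with 3 higher at an unadjusted p under 0.05 and 3 called higher by DESeq2. Without coculture replicate 3 edgeR called 1 higher, Relb, a subunit of the noncanonical pathway (log2 fold change 1.06, adjusted p = 0.0205), and 3 lower, and the median turned positive, at 0.24. Nfkb1, which encodes the p105 precursor of a DNA-binding subunit, fell from 86.9 ± 13.9 to 39.7 ± 5.30 CPM (2.19-fold, adjusted p = 0.00695, edgeR). Nfkbid, an atypical inhibitor of NF-κB, fell from 16.1 ± 4.72 to 2.60 ± 1.59 CPM (6.20-fold, adjusted p = 0.0327). Their log2 fold changes were -1.13 and -2.63, and -1.12 and -2.30 without that library. Of 13 genes of the TNF axis tested, Traf1, an adaptor of TNF receptors that NF-κB induces, was called higher, at 1.98 ± 0.664 CPM in MKs cultured alone and 14.6 ± 10.4 CPM in cocultures (7.27-fold, adjusted p = 0.0173). Its log2 fold change of 2.86 fell to 2.24 on leaving out coculture replicate 3, which held 28.7 CPM. With all libraries edgeR called none of that list lower, with 2 lower at an unadjusted p under 0.05 and 1 called lower by DESeq2. Without that library it called 2 higher, Traf1 and Tnf, and 2 lower, Ltb, which encodes lymphotoxin β (log2 fold change -1.76, adjusted p = 0.000352), and Birc2, which encodes the ubiquitin ligase cIAP1 (-1.29, adjusted p = 5.12e-05), and the list median went from 0.18 to -0.39. Among the 4 IL-1 family ligands tested, Il1b was the one called, with Il18 called higher as well without coculture replicate 3 (list medians 0.050 and 0.22).

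**Figure D4:**
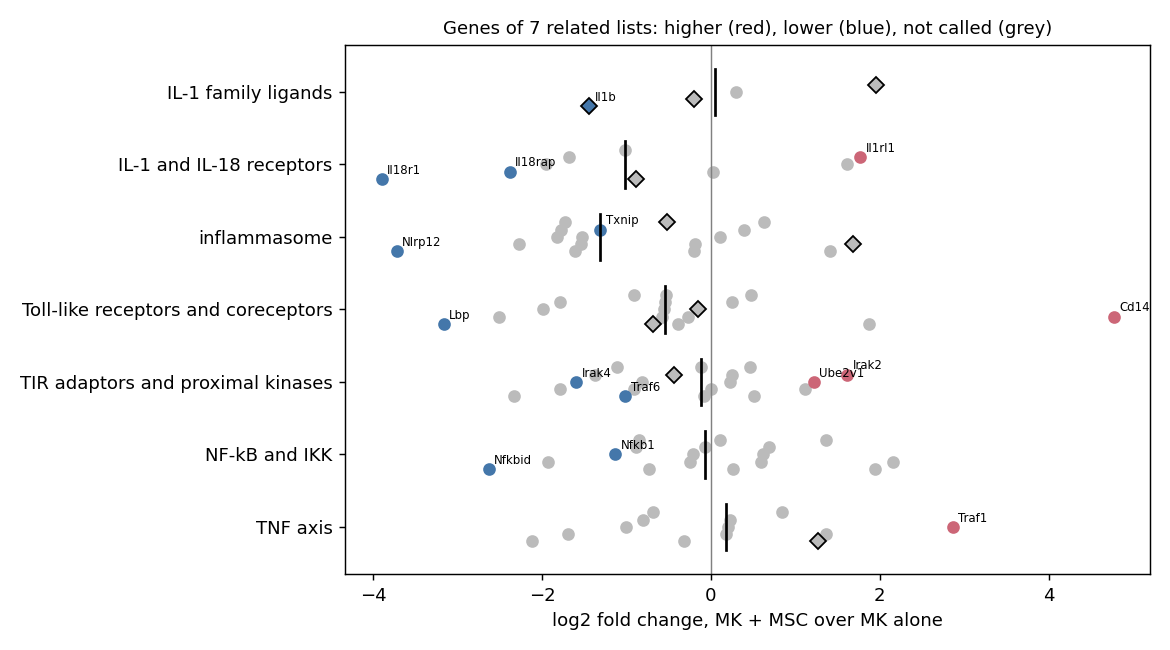
Log2 fold change (cocultures over MKs cultured alone, edgeR, all 8 libraries) of the tested genes of 7 hand-written lists, with members as diamonds and the median of each list as a vertical bar. Genes called higher (red) and lower (blue) are named, and grey genes were not called, which leaves 5 red and 10 blue genes among 96.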

How the data were processed

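The authors deposited 1 table of raw counts per gene for 8 libraries, whole numbers without normalization. Per the methods, low-input SMART-Seq HT libraries were read from both ends of each fragment (paired-end), and reads were filtered with fastp and quantified with kallisto on the mm10 transcriptome. How transcripts were summed to genes is not given in the sources used here. Groups and replicate numbers came from the labels, and no column of the table was left without a sample.

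The 8 libraries entered a single edgeR 4.0.16 fit (R 4.3.3) without covariates, after filterByExpr and TMM scaling, and groups were compared by its robust quasi-likelihood test with p-values adjusted over the 11722 genes tested. Cutoffs followed the paper, except that CPM replaced TPM. Its batch term was left out because no source names the batches. The SE of a log2 fold change was derived from the F statistic. Alternatives were DESeq2 1.42.0, RLE factors, library size only, scaling to MK and platelet markers, no filter, at least 10 counts in 4 libraries, no CPM cutoff, the replicate number as a block, and each library left out in turn. Ratios and marker scores were tested by exact permutation with scipy 1.17.1, and for them the pseudocount was varied as well. On simulated counts, with 200 of 11499 tested genes changed 8-fold, edgeR recovered 167 and called 8 others, and DESeq2 recovered 180 and called 46 others. The simulation held no library like coculture replicate 3 and no change as small as that of Il1b. It therefore does not measure how well calls in these data are recovered. GENCODE vM21 (GRCm38, equal to mm10) gave positions and transcript lengths, and RefSeq the promoters.

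The members and lists were chosen with earlier results of these data known. The genes named were all members, the called genes of each list that are not members (up to 4 by mean CPM), the partners in the ratios, the highest gene of each marker list and the 3 genes most similar to each member. Any other gene was named after its values were seen. Reads carry no molecular identifiers.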

Additional observations from a re-analysis of the deposited data

Results flagged for a closer look

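Dixon's test was applied, group by group, to the member levels, the 5 ratios and the 6 marker scores. It singled out a library in 9 of 42 cases, where chance gives about 2.1, and in 7 of the 9 it was coculture replicate 3. In that library log2(CPM + 1) stood apart at 0.144 for Il1r2, 0 for Il18 and 0.394 for Tlr4. Its log2 ratios stood apart at -3.70 for Il1r2/Il1r1 and 7.67 for Tlr2/Tlr4, and its marker scores at 4.21 for MSC markers and 2.06 for B cell markers. The log2(CPM + 1) of 2.14 for Il18 in replicate 4 of MKs cultured alone and the macrophage marker score of 5.91 in replicate 2 of the cocultures stood apart as well. The cause of these values was not tested.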

How the results depend on the processing

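Single members kept their direction and their side of the threshold in 133 of 150 alternative values. Among the values counted as kept is that of Nlrp3 by DESeq2, which had no adjusted p. The call of Il1b was lost with library size only (log2 fold change -1.37), with scaling to MK and platelet markers (-0.96) and with the replicate block (-1.57), and those 3 fits called 0 members lower. Same-numbered libraries were not taken as pairs, since no source names the batches. The correlations of their deviations from the group means across genes were 0.369, 0.0198, 0.150 and 0.0280 for replicates 1 to 4. Those of differently numbered libraries ran from -0.282 to 0.0990. These values do not settle whether same-numbered libraries share a batch. The replicate block called 4 of the 96 pathway genes higher and 4 lower, and 1096 and 573 of all 11722 genes. Cocultures 1 and 3 correlated best with their own number, and cocultures 2 and 4 with replicate 1 of MKs cultured alone.

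Scaling to MK and platelet markers shifted the all-gene median from 0.034 to 0.65 (log2) and turned Il1rn (0.45), Casp1 (0.088), Tlr2 (0.61) and Myd88 (0.27) positive. Relative to that median they lay at -0.21, -0.56, -0.040 and -0.38, and Il1b at -1.61. That setting called 2357 genes higher and 432 lower, so 84.5% of calls were higher, against 64.3%, and 9 pathway genes higher and 5 lower. DESeq2 called 9 of the 96 pathway genes higher and 16 lower, and 1857 and 1259 of all 11722 genes.

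With a library left out, genes called higher ran from 1071 to 2530 and lower from 539 to 1890, members called higher from 0 to 2 and lower from 0 to 1, and pathway genes called higher from 2 to 9 and lower from 3 to 27. Log2 fold changes then ran from -1.65 to -1.20 for Il1b, -0.082 to 2.07 for Nlrp3, -0.38 to 0.018 for Tlr2, 1.68 to 2.36 for Il18 and 0.87 to 1.66 for Tnf. Without coculture replicate 3, Il18 (2.36) and Tnf (1.66) were called and Nlrp3 was negative (-0.082), and without coculture replicate 2 Tlr2 was positive (0.018). Log2 ratio differences ran from -1.65 to -1.03 for Il1b/Il1rn, -3.92 to -2.51 for Il1r2/Il1r1, 2.12 to 2.78 for Il18/Il18bp, -0.092 to 2.83 for Tlr2/Tlr4 and -0.72 to 0.55 for Casp1/Pycard. Score differences ran from -0.76 to -0.33 for MK and platelet, 2.95 to 3.22 for macrophage, -2.62 to -2.14 for monocyte, -3.35 to -3.02 for neutrophil, 3.90 to 4.81 for MSC and -2.05 to -1.38 for B cell markers. In an alternative chosen after seeing the data, each ratio used only libraries with a count of either gene, and Il1b/Il1rn (-1.37), Il1r2/Il1r1 (-3.50) and Il18/Il18bp (2.78) then missed the threshold after adjustment (p = 0.0714, 0.0714 and 0.0952 by exact permutation). With 4 against 3 libraries no exact test can pass 0.05. The MK and platelet score difference did not pass with library size only (-0.60). With the longest transcript, 6 of 10 members kept their rank per length in MKs cultured alone and 3 of 10 in cocultures. The cause was not tested.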
